A study of Danio rerio with 6 samples.

Results

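The 9 genes described here code for transcription factors of the zebrafish retina and pineal gland, and their mRNA was measured in whole embryos at 36 hpf. They are crx and otx5 of photoreceptors and the pineal, vsx1 of bipolar cells, atoh7 and tfap2d of the ganglion cell lineage, the neurogenic factor neurod4, ptf1a of amacrine and horizontal cells, and rx1 and rx2 of retinal progenitors. They were found in the count tables by symbol, and each symbol matched 1 gene. All 9 of the 34326 listed genes so chosen averaged 1 CPM or more over the libraries, as did 19194 genes in all, where CPM is the read count scaled so that every library has the same total. The set was selected on measured values, since crx and tfap2d were nearly lost in siblings with perk MO and the other 7 were placed around them by cell type. The comparison of siblings with perk MO against sibling controls is therefore a description with no test. Every ratio that uses the sibling perk MO or the sibling control library shares that library with the choice.

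The study compared embryos homozygous for a nonsense allele of tars, the gene of threonyl-tRNA synthetase, with siblings from the same crosses. Each genotype was left uninjected, injected at the 1-cell stage with a morpholino (MO, an antisense oligonucleotide) against gcn2, or injected with a morpholino against perk. Gcn2 and Perk are kinases that slow translation when amino acids run short or when unfolded proteins gather in the endoplasmic reticulum. The 6 groups were thus sibling control, sibling gcn2 MO, sibling perk MO, tars-/- control, tars-/- gcn2 MO and tars-/- perk MO, with 1 RNA-seq library each. All embryos were kept in 0.045% PTU, which blocks pigment. The controls were uninjected, so an effect of injection itself and an effect of either morpholino cannot be told apart. The siblings were not split by tars genotype in the labels, and the number of embryos in a library is not given in the sources used here.

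The vertebrate retina builds its neurons from a common pool of dividing progenitors that carry Rx homeobox factors, and basic helix-loop-helix (bHLH) factors such as Atoh7, Ptf1a and the NeuroD family act as cells leave that pool. Ganglion cells are the earliest neurons to form in the zebrafish retina, and photoreceptors and bipolar cells form later. Otx-class homeobox factors, Crx and Otx5 among them, switch on photoreceptor genes in the retina and in the pineal gland, a light-sensitive organ of the forebrain that differentiates before the retinal photoreceptors do.

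The libraries held between 29949451 and 47516784 reads counted on genes. The intervals given with ratios are 95% Clopper-Pearson intervals of the counts and cover counting error only, because no group had a replicate against which a difference could be held. Transcripts of tars were at 68.1 to 95.9 CPM in the 3 sibling libraries and at 21.3 to 37.3 CPM in the 3 tars-/- libraries, in the direction of the genotype labels. Transcripts of eif2ak3, the gene of Perk, were between 37.5 and 46.9 CPM in all 6 libraries, and mRNA levels do not measure a block of translation. The gene of Gcn2 was not matched in the tables and is not analysed here.

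Of the 9 genes, 7 were lower in all 4 injected libraries than in both uninjected controls. They were crx, otx5, vsx1, atoh7, tfap2d, neurod4 and ptf1a. Across all 19194 genes, 13.7% had all 4 injected libraries below both controls. In the gene lists described further below, which leave out the 9, the same held for 10 of 13 pan-neuronal genes. It held for 9 of 12 ganglion cell genes, 9 of 12 photoreceptor and pineal regulators and 7 of 10 neurogenic bHLH genes. Next were 8 of 14 amacrine and horizontal cell genes, 4 of 7 pigment epithelium genes and 4 of 7 AP-2 and Otx family genes. The count was 3 of 7 for bipolar cell genes and 6 of 16 for eye field and progenitor genes. For phototransduction and melatonin genes the count was 4 of 13, and for midbrain and hindbrain genes 4 of 14. It held for 1 of 7 pancreas genes, 1 of 9 lens genes, 1 of 14 proliferation genes and 0 of 9 p53 target genes. The progenitor gene rx1 had the opposite order, with all 4 injected libraries above both controls, as did 15.5% of all genes, and rx2 had neither order. Among the lists, the order of rx1 held for 7 of 9 p53 target, 4 of 14 proliferation and 3 of 9 lens genes. It held for 4 of 16 eye field and progenitor genes and 3 of 13 phototransduction and melatonin genes. Also in this order were 2 of 12 photoreceptor and pineal regulators, 2 of 7 bipolar and 2 of 7 AP-2 and Otx family genes. Pigment epithelium and pancreas each had 1 of 7, midbrain and hindbrain 1 of 14, and the other lists 0. The RNA came from whole embryos, so fewer cells of a type and less RNA per cell cannot be told apart in any value that follows. For the same reason, reads from the retina or pineal cannot be told apart from reads of the same gene in other tissue.

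**Figure D1:**
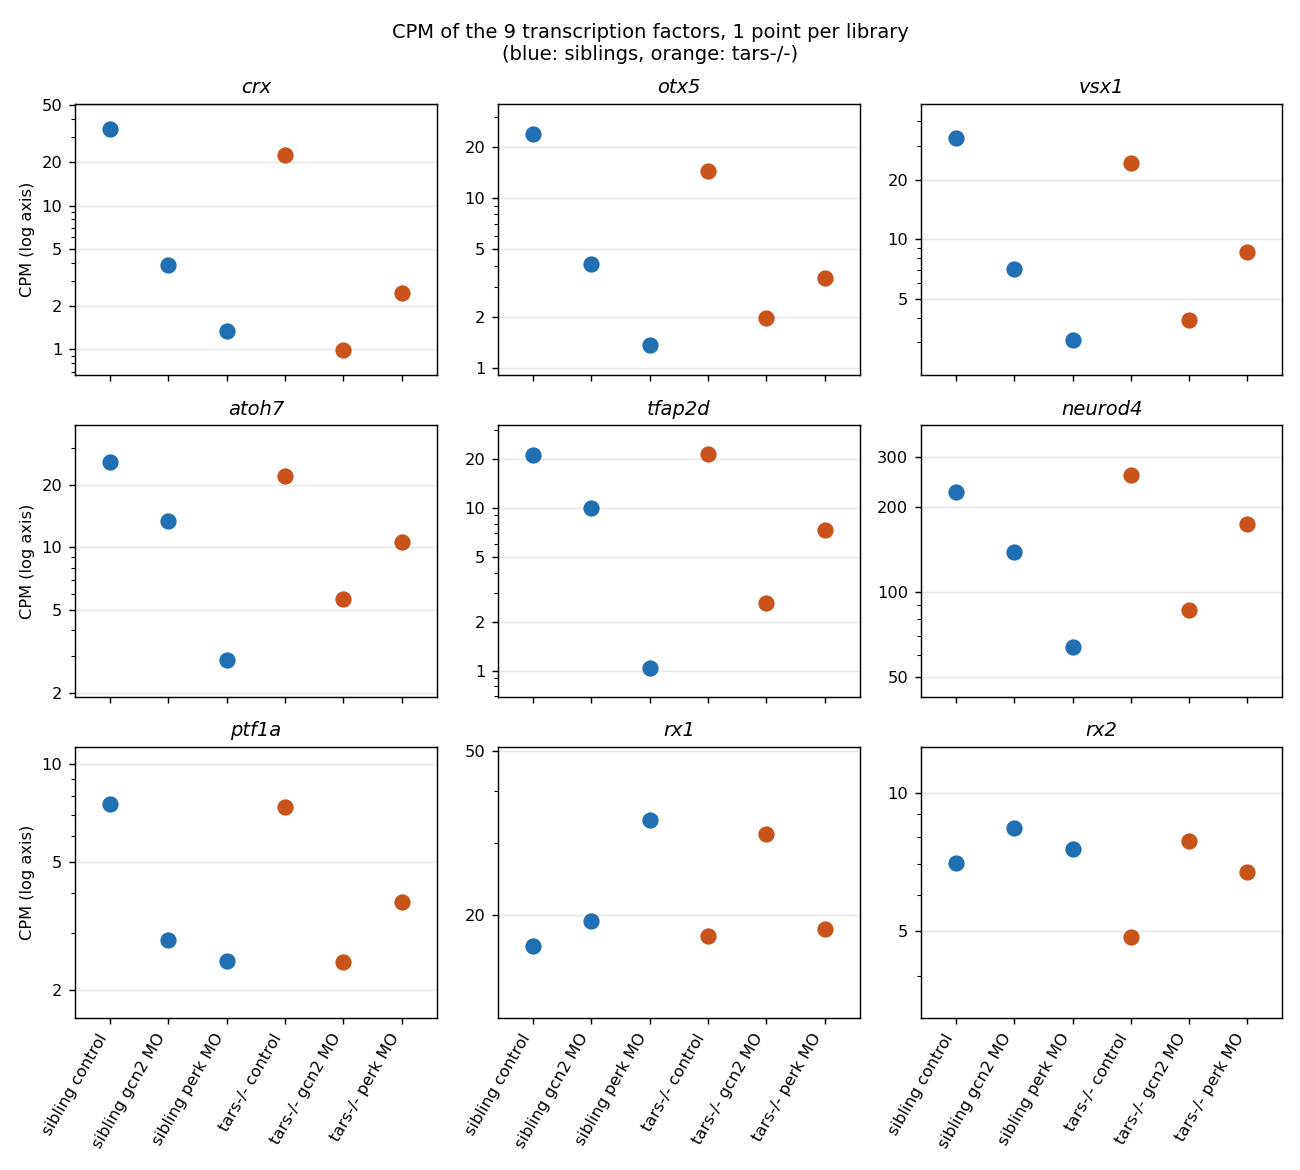
CPM of each of the 9 transcription factors (vertical axes, log scale) in the 6 libraries (horizontal axes), with 1 point per library, siblings in blue and tars-/- in orange. For crx the 2 control libraries were at 34.1 and 22.6 CPM and the 4 injected libraries were between 0.995 and 3.87 CPM, whereas rx1 was between 16.9 and 34.1 CPM throughout and was highest in siblings with perk MO.

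The cone-rod homeobox gene crx (ENSDARG00000011989), which drives photoreceptor and pineal gene expression, was high in both uninjected libraries and low in every injected one. In siblings it was at 34.1 CPM uninjected (1349 reads), 3.87 CPM after gcn2 MO (137 reads) and 1.34 CPM after perk MO (40 reads). The tars-/- libraries had it at 22.6 CPM uninjected (801 reads), 0.995 CPM after gcn2 MO (32 reads) and 2.46 CPM after perk MO (117 reads). Controls and injected libraries did not overlap, and the morpholino with the lower value was perk MO in siblings but gcn2 MO in tars-/-. Against the uninjected library of its genotype, the ratio was 0.0392 (0.0278 to 0.0536) with perk MO and 0.114 (0.0945 to 0.135) with gcn2 MO in siblings. The tars-/- ratios were 0.0440 (0.0299 to 0.0627) for gcn2 MO and 0.109 (0.0890 to 0.132) for perk MO. The 2 lowest libraries, tars-/- gcn2 MO and sibling perk MO, had a ratio of 0.745 with a counting interval that includes 1 (0.453 to 1.22). Without injection, tars-/- had 0.662 of the sibling level (0.606 to 0.723).

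The order for otx5 (ENSDARG00000043483), which regulates clock-linked genes of the zebrafish pineal, was the same as for crx except that sibling perk MO rather than tars-/- gcn2 MO was the lowest library. Its levels in siblings were 23.8 CPM uninjected, 4.07 CPM after gcn2 MO and 1.37 CPM after perk MO. In tars-/- they were 14.4 CPM uninjected, 1.96 CPM after gcn2 MO and 3.37 CPM after perk MO. The lowest control was more than 3 times the highest injected library. Against their own controls, the ratios were 0.0575 (0.0410 to 0.0786) for sibling perk MO and 0.171 (0.142 to 0.204) for sibling gcn2 MO. They were 0.136 (0.103 to 0.178) for tars-/- gcn2 MO and 0.235 (0.195 to 0.281) for tars-/- perk MO. Crx and Otx5 are related Otx-class factors, and how reads that match both genes were counted is not given in the sources used here.

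Bipolar cells, which carry photoreceptor signals to ganglion cells, are marked by vsx1 (ENSDARG00000056292) as they mature. It measured 32.6 CPM in the uninjected siblings, 7.07 CPM after gcn2 MO and 3.07 CPM after perk MO. In tars-/- it was at 24.4 CPM without injection, 3.89 CPM after gcn2 MO and 8.63 CPM after perk MO. Injected and control libraries were again apart. The ratios to the own control were 0.0941 (0.0753 to 0.116) in siblings with perk MO, 0.216 (0.188 to 0.248) in siblings with gcn2 MO, 0.160 (0.131 to 0.193) in tars-/- with gcn2 MO and 0.354 (0.314 to 0.399) in tars-/- with perk MO.

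The bHLH gene atoh7 (ENSDARG00000069552) is switched on at the last division of progenitors and is needed for ganglion cells to form. Its levels in siblings were 25.8 CPM uninjected, 13.3 CPM after gcn2 MO and 2.87 CPM after perk MO. The tars-/- libraries had it at 22.1 CPM uninjected, 5.66 CPM after gcn2 MO and 10.6 CPM after perk MO. All 4 injected libraries were below both controls, but their spread, from 2.87 to 13.3 CPM, was wider than that of vsx1. The ratio to the control was 0.111 (0.0884 to 0.139) for perk MO and 0.518 (0.463 to 0.578) for gcn2 MO in siblings. Gcn2 MO in tars-/- gave 0.256 (0.217 to 0.301), and perk MO in tars-/- gave 0.481 (0.429 to 0.538).

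The AP-2 gene tfap2d (ENSDARG00000023272), whose mouse counterpart is expressed in ganglion cells and in the dorsal midbrain, had the largest distance of the 9 between the 2 morpholinos in siblings. It measured 21.0 CPM in the uninjected siblings (831 reads), 9.98 CPM after gcn2 MO (353 reads) and 1.04 CPM after perk MO (31 reads). In tars-/- it was at 21.4 CPM uninjected (760 reads), 2.61 CPM after gcn2 MO (84 reads) and 7.34 CPM after perk MO (349 reads). The controls were close together and all injected libraries lay below them. Perk MO in siblings gave 0.0493 of the control level (0.0333 to 0.0705), and gcn2 MO gave 0.475 (0.418 to 0.539). In tars-/- the corresponding ratios were 0.343 (0.301 to 0.389) with perk MO and 0.122 (0.0961 to 0.153) with gcn2 MO. Unlike crx, tfap2d was higher in tars-/- with gcn2 MO than in siblings with perk MO, by a ratio of 2.52 (1.65 to 3.94). Sibling perk MO was at 0.104 of sibling gcn2 MO (0.0694 to 0.150).

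The most abundant of the 9 genes was neurod4 (ENSDARG00000003469), a bHLH factor that promotes neuronal differentiation in several parts of the nervous system as well as in the retina. Per kilobase of gene, the deposited FPKM in the sibling control was 115 for neurod4, 24.7 for atoh7, 20.5 for vsx1, 14.3 for crx and 13.6 for otx5. It was 9.50 for tfap2d, 9.44 for ptf1a, 5.12 for rx1 and 3.54 for rx2. In CPM, neurod4 was at 226 in the uninjected siblings, 138 after gcn2 MO and 63.8 after perk MO, and in tars-/- it was at 259 uninjected, 86.2 after gcn2 MO and 174 after perk MO. It kept more of its control level than crx, otx5, vsx1, atoh7 and tfap2d in each of the 4 injected libraries. Its ratios were 0.282 (0.268 to 0.296) and 0.610 (0.589 to 0.632) for perk MO and gcn2 MO in siblings, and 0.672 (0.653 to 0.693) and 0.333 (0.319 to 0.347) for perk MO and gcn2 MO in tars-/-.

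The bHLH gene ptf1a (ENSDARG00000014479) directs amacrine and horizontal cell fates in the retina and also acts in the hindbrain and the exocrine pancreas. Its levels were 7.53 CPM in the sibling control, 2.85 CPM after gcn2 MO and 2.47 CPM after perk MO. In tars-/- they were 7.36 CPM uninjected, 2.46 CPM after gcn2 MO and 3.75 CPM after perk MO. The 4 injected libraries were close to each other, between 2.46 and 3.75 CPM, and below both controls. The ratio to the control was 0.328 (0.251 to 0.424) for sibling perk MO and 0.379 (0.299 to 0.476) for sibling gcn2 MO. In tars-/- it was 0.334 (0.256 to 0.431) for gcn2 MO and 0.509 (0.418 to 0.618) for perk MO. The counting interval of sibling perk MO over sibling gcn2 MO included 1 (0.866, 0.632 to 1.18), and ptf1a was the 1 gene of the 7 for which this was so.

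The Rx genes rx1 and rx2 mark retinal progenitors and, in zebrafish, are also found in photoreceptors. For rx1 (ENSDARG00000071684) the levels in siblings were 16.9 CPM uninjected, 19.4 CPM after gcn2 MO and 34.1 CPM after perk MO. In tars-/- they were 17.8 CPM uninjected, 31.5 CPM after gcn2 MO and 18.6 CPM after perk MO. The 2 libraries with the lowest crx, atoh7 and vsx1 were the 2 with the highest rx1. Its ratio to the control was 2.02 (1.83 to 2.23) for sibling perk MO and 1.77 (1.60 to 1.96) for tars-/- gcn2 MO. Of the remaining ratios, that of sibling gcn2 MO was 1.15 (1.03 to 1.28) and that of tars-/- perk MO was 1.04 (0.942 to 1.16).

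For rx2 (ENSDARG00000040321) the levels were 7.03, 8.37 and 7.55 CPM in sibling control, gcn2 MO and perk MO, and 4.85, 7.84 and 6.73 CPM in the same order in tars-/-. The lowest library was thus the tars-/- control. The ratio to the control was 1.07 (0.897 to 1.28) for sibling perk MO, 1.19 (1.01 to 1.41) for sibling gcn2 MO, 1.39 (1.15 to 1.68) for tars-/- perk MO and 1.62 (1.33 to 1.97) for tars-/- gcn2 MO. The Rx proteins are close relatives, and reads that match both genes may have been counted for either or for neither.

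**Figure D2:**
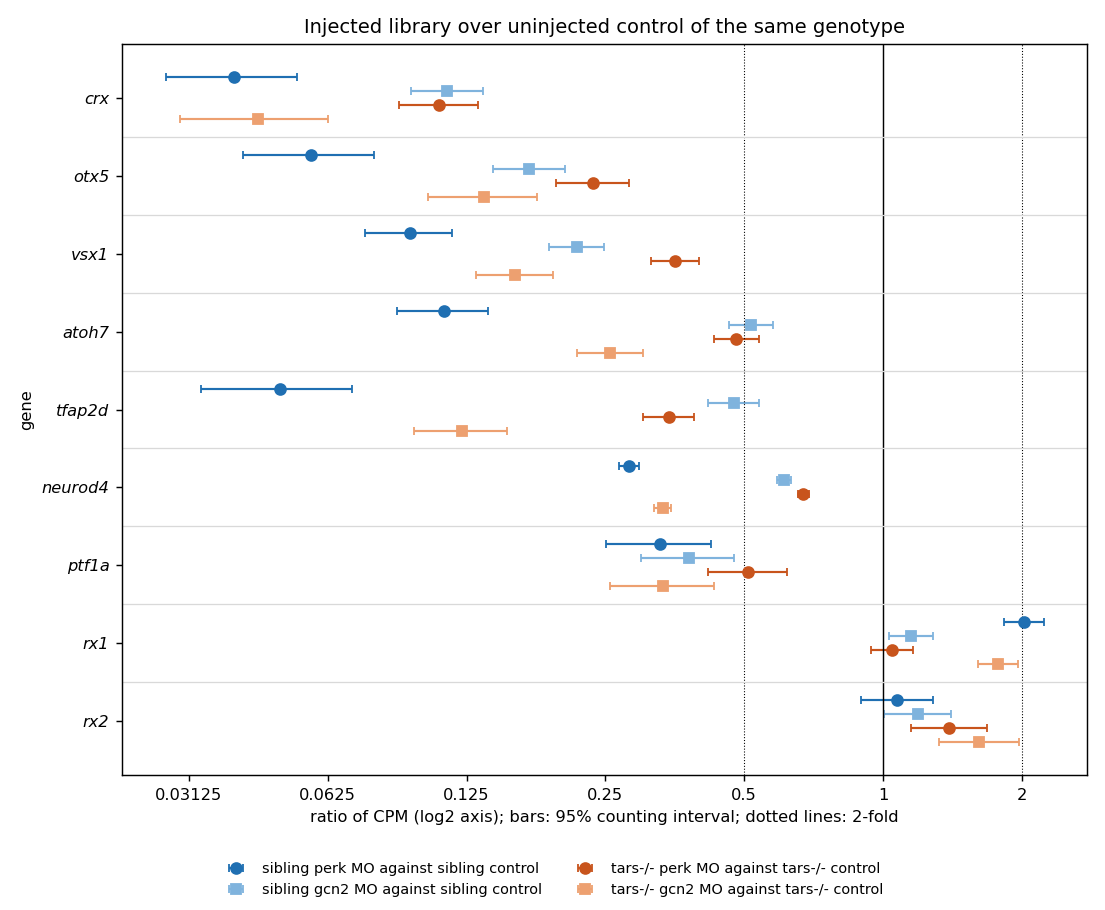
Ratio of each injected library to the uninjected control of the same genotype (horizontal axis, log2 scale) for the 9 genes, with bars for the 95% counting interval and dotted lines at 2-fold. In siblings the perk MO point (dark blue) lay left of the gcn2 MO point (light blue) for crx to ptf1a, and in tars-/- the gcn2 MO point (light orange) lay left of the perk MO point (dark orange). rx1 and rx2 lay at or right of 1.

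How far a morpholino set this group of genes apart from its control was counted at a threshold of 2-fold, with 0.5 CPM added to both values, among the 19194 genes that averaged 1 CPM or more. In siblings with perk MO, the comparison that chose the genes, 7 of 9 were at least 2-fold lower, where 5.27% of all genes were. The rule of choice did not name the remaining 3 comparisons, but that of sibling gcn2 MO shares the sibling control library with it. The 2 in tars-/- used neither library of the rule. The genes were chosen with earlier results of these data known, so none of these counts is independent of the choice. In tars-/- with gcn2 MO 7 of 9 were 2-fold lower, against 2.68% of all genes. In tars-/- with perk MO 5 of 9 were (crx, otx5, vsx1, atoh7 and tfap2d), against 0.5% of all genes. In siblings with gcn2 MO 5 of 9 were (crx, otx5, vsx1, tfap2d and ptf1a), against 1.11% of all genes. With 2 CPM added in place of 0.5 CPM the count there was 3, and 94 of the 19194 genes were lower. With 0.5 CPM added 0 of the 9 were 2-fold higher, with rx1 in sibling perk MO just short at a log2 ratio of 0.99. With TMM scaling rx1 was past 2-fold there, at a log2 ratio of 1.06.

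The median log2 ratio of the 9 genes was -2.96 for sibling perk MO, -1.04 for sibling gcn2 MO, -1.02 for tars-/- perk MO and -1.88 for tars-/- gcn2 MO. Over all genes the medians were -0.04, -0.02, 0.05 and 0.09 in the same order. The 2 comparisons within a genotype share that genotype's control library. When each injected library was instead set against the control of the other genotype, 7, 5, 5 and 7 of the 9 genes were 2-fold apart in the same order, where 6.91%, 2.86%, 3.79% and 6.26% of all genes were, an alternative chosen after seeing the data.

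The 2 morpholinos were then compared directly within each genotype. In siblings, 6 of 9 genes were at least 2-fold lower with perk MO than with gcn2 MO, namely crx, otx5, vsx1, atoh7, tfap2d and neurod4, where 1.85% of all genes were. With 2 CPM added the count was 3, and 161 of all genes were lower. The ratio of perk MO to gcn2 MO was lowest for tfap2d, given above, followed by 0.215 (0.169 to 0.271) for atoh7. In tars-/- the order was turned around, and 3 of 9 genes (vsx1, tfap2d and neurod4) were at least 2-fold lower with gcn2 MO than with perk MO, where 2.03% of all genes were. With 2 CPM added this count was 1, and 223 of all genes were lower. The ratio of gcn2 MO to perk MO in tars-/- was 0.356 (0.277 to 0.452) for tfap2d, 0.450 (0.366 to 0.552) for vsx1 and 0.495 (0.474 to 0.517) for neurod4. Crx was at a log2 ratio of -0.99 there, just short of 2-fold.

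The 2 libraries at the low end, sibling perk MO and tars-/- gcn2 MO, came from different genotypes and different morpholinos. Between them 1 of 9 genes, tfap2d, was at least 2-fold apart, where 0.349% of all genes were, and it fell short of 2-fold under TMM scaling. The counting interval of tars-/- gcn2 MO over sibling perk MO included 1 for crx, otx5 (1.43, 0.951 to 2.18), vsx1 (1.27, 0.959 to 1.67), ptf1a (0.994, 0.715 to 1.38), rx1 (0.925, 0.847 to 1.01) and rx2 (1.04, 0.864 to 1.25). It was above 1 for atoh7 (1.97, 1.52 to 2.58), tfap2d and neurod4 (1.35, 1.27 to 1.43).

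The genotypes were compared within each injection state. Without injection, 0 of 9 genes were 2-fold apart between tars-/- and siblings, where 1.68% of all genes were. The median log2 ratio over all genes was -0.11 in this comparison, and the median of the 9 was -0.22. The tars-/- control was lower for crx and otx5 (0.603, 0.540 to 0.672), for vsx1 (0.747, 0.684 to 0.814), for rx2 (0.690, 0.567 to 0.838) and for atoh7 (0.858, 0.781 to 0.943). It was higher for neurod4 (1.14, 1.11 to 1.18). The counting interval included 1 for tfap2d (1.02, 0.923 to 1.13), ptf1a (0.977, 0.824 to 1.16) and rx1 (1.05, 0.943 to 1.18). These ratios rest on library totals. Under TMM scaling the median was 0.00 over all genes and -0.10 for the 9. Whether an interval with an end close to 1 includes 1 therefore depends on the scaling.

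With gcn2 MO in both genotypes, 3 of 9 genes were at least 2-fold lower in tars-/- than in siblings, where 1.17% of all genes were. They were crx at a ratio of 0.257, tfap2d at 0.262 (0.204 to 0.333) and atoh7 at 0.424 (0.356 to 0.504). With perk MO in both genotypes, 5 of 9 genes were at least 2-fold higher in tars-/- than in siblings, where 3.39% of all genes were. The highest was tfap2d at a ratio of 7.10 (4.91 to 10.6), followed by atoh7 at 3.70 (2.94 to 4.71), vsx1 at 2.81 (2.24 to 3.56), neurod4 at 2.73 (2.59 to 2.87) and otx5 at 2.46 (1.74 to 3.56). For rx1 the genotype ratio went the other way in both states, at 1.62 (1.47 to 1.79) under gcn2 MO and 0.545 (0.497 to 0.597) under perk MO.

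**Figure D3:**
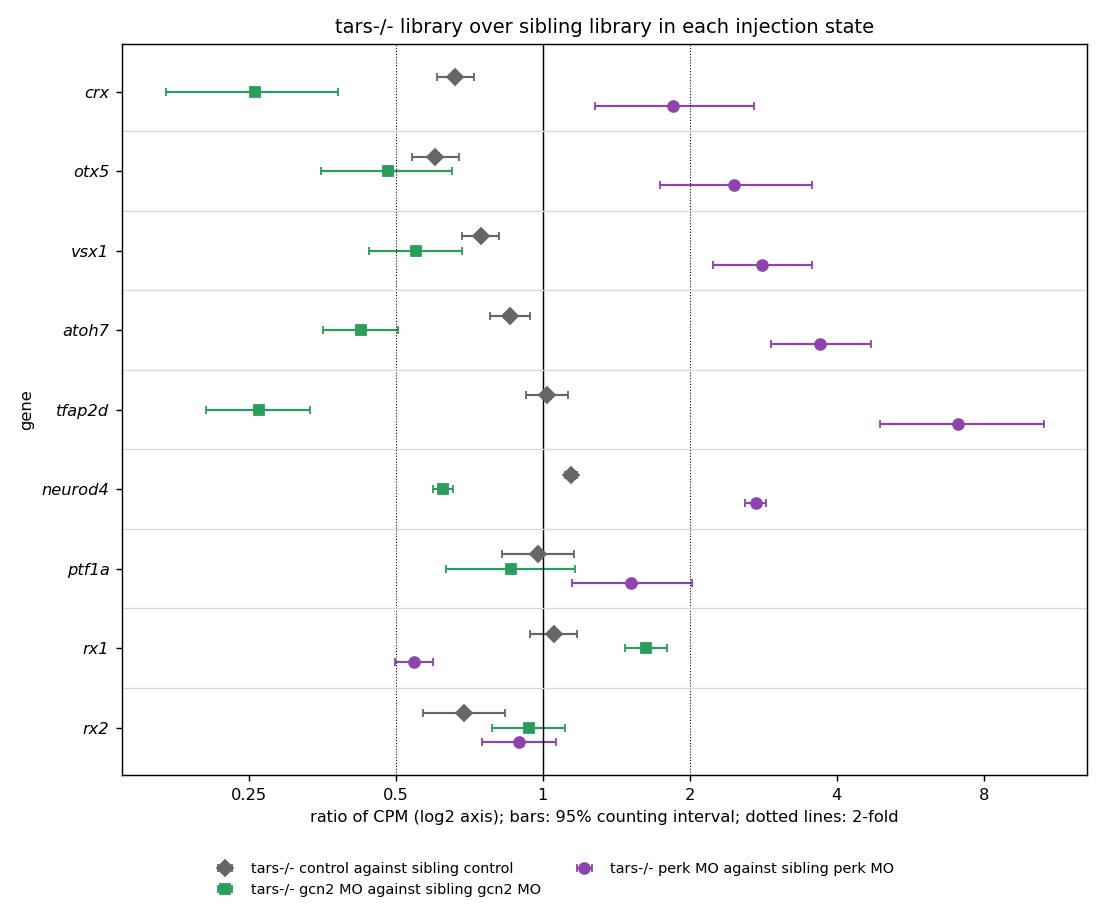
Ratio of the tars-/- library to the sibling library (horizontal axis, log2 scale) for the 9 genes without injection (grey), with gcn2 MO (green) and with perk MO (purple), with bars for the 95% counting interval. For crx, otx5, vsx1, atoh7, tfap2d and neurod4 the green points lay below 1 and the purple points above 1, with tfap2d at 0.262 and 7.10, and rx1 had the reverse order.

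For the mean effect of genotype, 3 tars-/- libraries were set against 3 sibling libraries with injection state as a covariate, and the effect of a morpholino averaged over both genotypes was not tested. In this model a genotype effect that differs between injection states counts as residual spread. A lack of calls therefore does not show that genotype had no effect within an injection state. The edgeR quasi-likelihood test called 0 of the 9 genes at an adjusted p of 0.05 (0.0% of all 19194 genes were called), and 0 of the 9 had an unadjusted p under 0.05, where 669 genes did. Without the gcn2 MO pair 3 of the 9 had an unadjusted edgeR p under 0.05 (atoh7, tfap2d and neurod4), where 1521 of the 19194 genes did. Without the perk MO pair 5 of the 9 did (crx, otx5, vsx1, atoh7 and rx1), where 1697 genes did. After adjustment 0 of the 9 were called in either fit, while 285 and 133 of all genes were called in the same order. Every fit used sibling perk MO, sibling control or both, the libraries on which the genes were chosen. The fits on all 6 libraries and the fit without the gcn2 MO pair used both. The p-values of the 9 genes are therefore descriptions and not independent of the choice. DESeq2 called 191 genes, 0 of them among the 9. The average log2 ratio of tars-/- to siblings ranged from -0.50 for crx to 0.35 for neurod4, with an edgeR adjusted p of 1.00 for each gene. For atoh7 the average was 0.13, and it was 0.81 without the gcn2 MO pair (edgeR adjusted p = 0.511) and -0.65 without the perk MO pair (edgeR adjusted p = 0.470). Likewise tfap2d went from 0.23 to 1.27 without the gcn2 MO pair (edgeR adjusted p = 0.247) and to -0.79 without the perk MO pair (edgeR adjusted p = 0.608).

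To place the other genes around crx, each gene's log2(CPM + 0.5) was centred on its mean over the 6 libraries, and the root mean square difference from crx was taken as a distance. The distance was 0.47 for otx5, 0.64 for vsx1, 0.82 for tfap2d, 0.95 for atoh7, 1.17 for ptf1a and 1.18 for neurod4, and it was 1.90 for rx2 and 2.07 for rx1. When all other genes were ranked by this distance, otx5 was at rank 4, vsx1 at 7, tfap2d at 15, atoh7 at 29, ptf1a at 106 and neurod4 at 115. The Rx genes were at ranks 15523 and 18483. These distances rest on 6 libraries that differ in treatment, so they describe profiles only. The 6 include sibling perk MO and sibling control, on which the genes were chosen. The ranks of the chosen genes are therefore not independent of the choice.

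Outside the 9, the 8 genes nearest to crx were BX927323.1 (distance 0.23), nr2e3 (0.34), ndrg1b (0.34), six7 (0.57), col10a1a (0.60), ampd1 (0.66), barhl1a (0.67) and CR848047.1 (0.68). The nuclear receptor gene nr2e3 acts with Crx in photoreceptors, and six7 is a homeobox gene that turns on cone opsins in zebrafish. In siblings nr2e3 was at 13.8 CPM uninjected, 1.33 CPM after gcn2 MO and 0.234 CPM after perk MO, and in tars-/- at 10.9, 0.684 and 0.863 CPM in the same order. For six7 the reads were 445 in the sibling control, 11 after gcn2 MO and 2 after perk MO, and 246, 18 and 18 in the same order in tars-/-. The unnamed gene BX927323.1 was at 11.4, 1.30 and 0.434 CPM in the sibling trio and 6.80, 0.187 and 0.737 CPM in the tars-/- trio. By contrast, ampd1 (a muscle AMP deaminase) and col10a1a (a collagen of maturing cartilage and bone) have no known part in photoreceptors. The gene col10a1a was listed with 141 and 99 reads in the sibling and tars-/- controls, 3 and 2 reads with gcn2 MO, and 0 reads in both perk MO libraries, where 3 reads would be 0.10 and 0.0631 CPM. For barhl1a, a BarH-like homeobox gene, the levels were 19.8, 6.19 and 2.30 CPM in the sibling trio and 15.1, 2.05 and 5.18 CPM in the tars-/- trio.

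**Figure D4:**
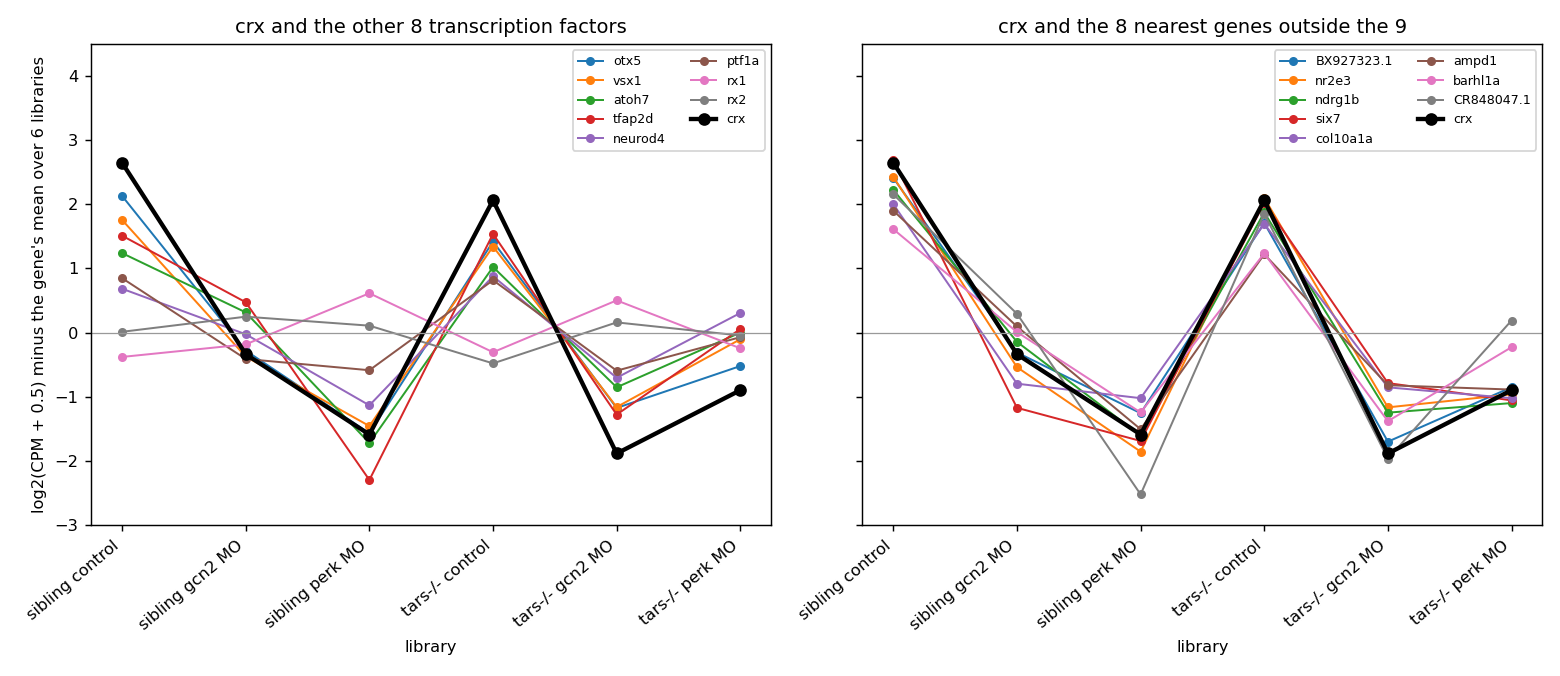
Log2(CPM + 0.5) minus the mean of the gene over the 6 libraries (vertical axes) in each library (horizontal axes) for crx (black) with the other 8 transcription factors (left) and with the 8 nearest genes outside the 9 (right). otx5 (distance 0.47) and vsx1 (0.64) ran close to crx, and rx1 (2.07) and rx2 (1.90) ran against it or flat; lines join libraries only to show a profile.

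Gene lists of retinal cell types and of other tissues were set beside the 9 genes, which were left out of the lists. The RNA came from whole embryos, so a value is not limited to the cell type or tissue that names its list. Counts are of genes at least 2-fold lower than the control of the same genotype, in the order sibling perk MO, sibling gcn2 MO, tars-/- perk MO and tars-/- gcn2 MO, and the shares of all genes given above apply to them. Of 14 photoreceptor and pineal regulators, 12 were tested, and 5, 4, 3 and 5 of them were lower, with medians of -0.69, -0.49, -0.52 and -0.77. The genes lower in all 4 were six7, nr2e3 and otx2, and those 3 stood far below the median of the list. The levels of otx2 (now named otx2b), which lies upstream of crx, were 102, 43.7 and 23.5 CPM in the sibling trio and 89.2, 26.7 and 42.2 CPM in the tars-/- trio. The highest of the list was nrl, a rod factor in mouse, at 0.202, 1.55 and 2.17 CPM in the sibling trio and 0.846, 2.61 and 1.56 CPM in the tars-/- trio.

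Genes of phototransduction and melatonin synthesis had low counts at 36 hpf. Of 28 listed, 26 were matched and 13 averaged 1 CPM or more, with 4, 1, 1 and 1 of them lower and medians of 0.05, 0.23, -0.03 and -0.38. The gene lower in all 4 was rho, rod opsin, at 3.21 CPM in the sibling control and 4.40 CPM in the tars-/- control, against 0.0668 to 0.591 CPM in the injected libraries. Next lowest was sagb, an arrestin, at 1.95 and 1.66 CPM in the controls and 0.568 to 1.24 CPM after injection. The cone transducin gene gnat2 was at 0.986 and 0.959 CPM in the controls and 1.18 to 2.50 CPM after injection.

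Of 11 bipolar cell genes, 7 were tested and 3, 1, 1 and 2 were lower (medians -0.92, -0.11, 0.01 and -0.50). Every injected library was below both controls for 3 of the 7 and above both for 2. Across all genes the shares were 13.7% and 15.5%. The gene lower in all 4 was prdm1b, at 9.46 and 6.54 CPM in the sibling and tars-/- controls and 1.27 to 2.95 CPM in the injected libraries. The bHLH gene bhlhe23, which is on the bipolar and the neurogenic list, was at 2.91 and 2.09 CPM in the controls, 0.234 CPM in sibling perk MO and 1.96 CPM in tars-/- perk MO.

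Of the ganglion cell genes, set beside atoh7 and tfap2d, 7, 3, 1 and 4 of 12 tested were 2-fold lower, with medians of -1.05, -0.54, -0.46 and -0.92. The POU gene pou4f2, which acts downstream of Atoh7 in ganglion cells, was at 20.8, 4.97 and 3.21 CPM in the sibling trio and 14.6, 4.20 and 5.49 CPM in the tars-/- trio. The homeobox gene barhl2, which is on the ganglion and the amacrine list, was at 41.4, 16.7 and 8.55 CPM in the sibling trio and 33.2, 7.49 and 16.7 CPM in the tars-/- trio. Both had every injected library below both controls. The adhesion gene alcama was the highest of the list, at 140 and 134 CPM in the controls and 99.9 to 128 CPM after injection.

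Of the amacrine and horizontal cell genes, set beside ptf1a, 7, 1, 0 and 6 of 14 were 2-fold lower, with medians of -0.89, -0.43, -0.27 and -0.66. The LIM homeobox gene lhx1a of horizontal cells was at 87.7, 47.0 and 17.2 CPM in the sibling trio and 77.4, 19.2 and 45.3 CPM in the tars-/- trio. Within each genotype, crx, otx5, vsx1, atoh7, tfap2d, neurod4 and ptf1a all had this same order of libraries. The onecut1 gene was at 50.7 and 39.9 CPM in the controls and 47.5 to 55.0 CPM after injection. Among neurogenic bHLH genes, 5, 1, 0 and 3 of 10 tested genes were lower (medians -1.13, -0.31, -0.20 and -0.76). The lowest was neurod1, a relative of neurod4, at 92.4, 43.3 and 24.1 CPM in the sibling trio and 83.9, 26.5 and 46.6 CPM in the tars-/- trio. The highest was atoh1a, a hindbrain relative of atoh7, at 21.1 and 30.3 CPM in the controls and 20.2 to 24.7 CPM after injection.

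Relatives of tfap2d and otx5 were split. Of 7 AP-2 and Otx family genes, 3, 1, 1 and 3 were lower (medians -0.63, -0.29, -0.15 and -0.48). The amacrine cell gene tfap2b was at 72.0, 36.8 and 22.7 CPM in the sibling trio and 57.6, 22.5 and 32.4 CPM in the tars-/- trio. The gene listed as otx1a (now named otx2a) was at 22.1 and 18.7 CPM in the controls and 23.9 to 29.0 CPM after injection.

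Eye field and progenitor genes stood beside rx1 and rx2, with 3, 0, 0 and 1 of 16 lower, 0 higher in any of the 4 comparisons, and medians of -0.22, -0.30, -0.13 and -0.10. The lowest were mab21l2 and mab21l1, which act in eye growth. In siblings mab21l2 was at 199 CPM in the control and 84.8 CPM with perk MO, and mab21l1 at 193 and 73.7 CPM. Of the 16 genes, 6 had every injected library below both controls and 4 had every injected library above, where 13.7% and 15.5% of all genes did. The difference between this list and those of retinal neurons was not tested.

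**Figure D5:**
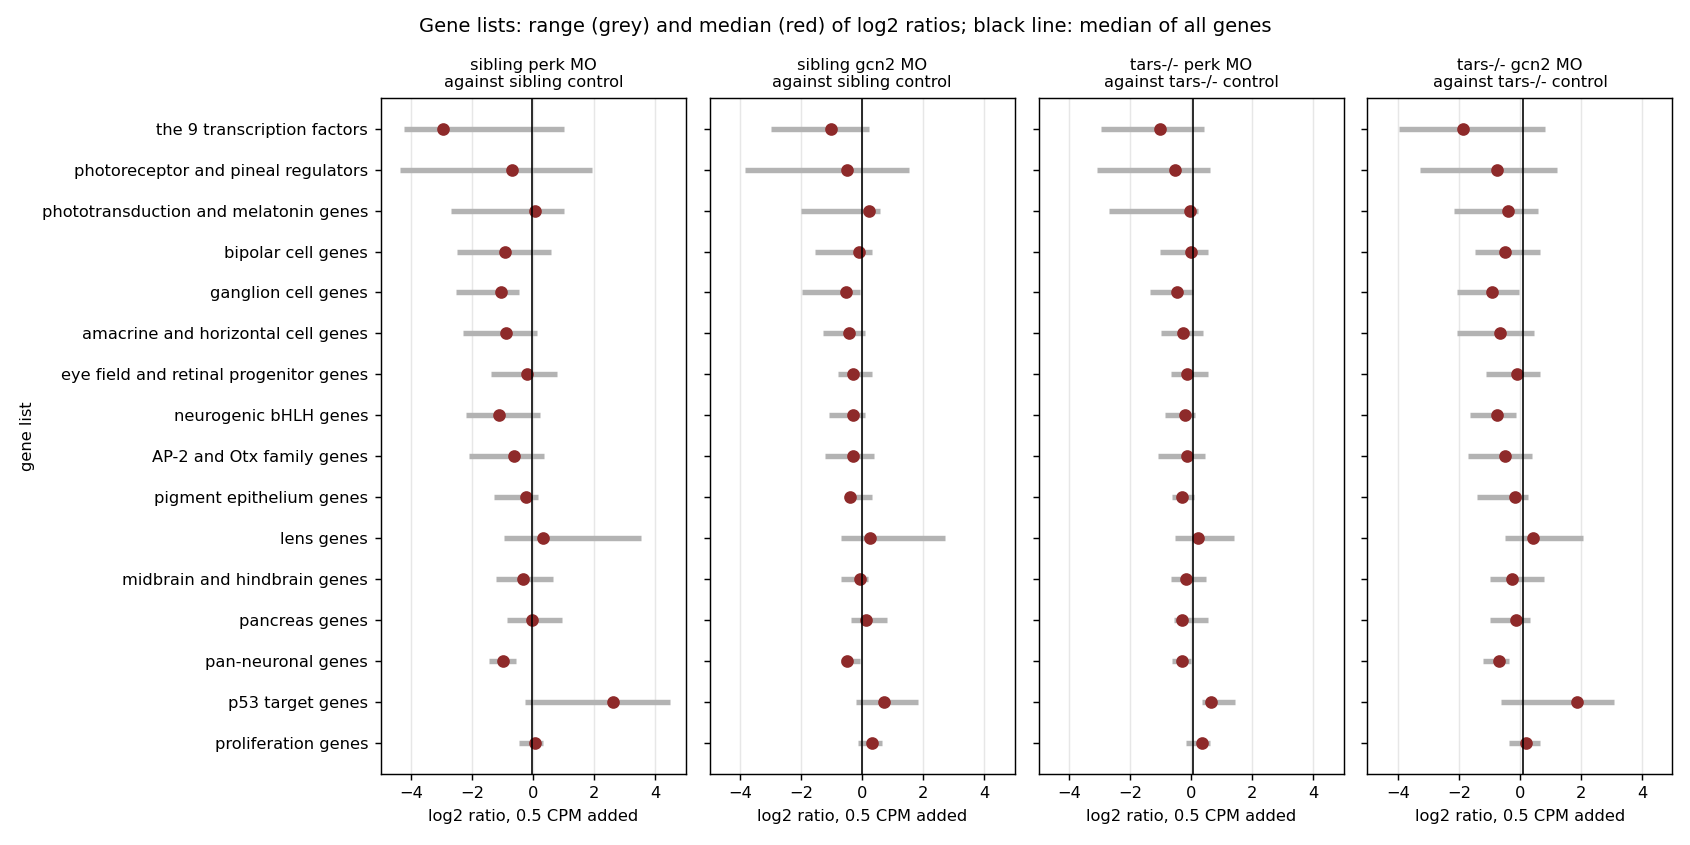
Range (grey bars) and median (red points) of log2 ratios to the uninjected library of each genotype, with 0.5 CPM added, for the 9 transcription factors and 15 gene lists (rows) in the 4 injected libraries (panels); the black line is the median of all genes. The median of the 9 genes was -2.96, -1.04, -1.02 and -1.88 from left to right, and the p53 target list was the list with the highest median in each panel.

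Several other lists moved with the order of the libraries. All 13 pan-neuronal genes were below the control in each of the 4 comparisons, with medians of -0.98, -0.51, -0.29 and -0.68 and 6, 0, 0 and 2 of them 2-fold lower. Their summed level was 2714.7 and 2267 CPM in the sibling and tars-/- controls and 1314 to 1987 CPM in the injected libraries. The lowest were stmn1b (199 and 170 CPM in the controls, 71.8 to 137 CPM after injection) and atp1a3a (150 and 134 CPM, then 67.8 to 94.2 CPM), and the highest was snap25a (90.6 and 82.5 CPM, then 58.0 to 85.5 CPM). The p53 target genes went the other way, with 7, 2, 2 and 7 of 9 at least 2-fold higher, where 2.5%, 0.745%, 0.781% and 2.97% of all genes were, and medians of 2.62, 0.73, 0.65 and 1.86. Their summed level was 832 CPM in the sibling control, 1580 CPM after gcn2 MO and 3813 CPM after perk MO, and in tars-/- it was 1030 CPM uninjected, 3681 CPM after gcn2 MO and 1638 CPM after perk MO. The cell cycle inhibitor cdkn1a was at 2.65, 10.8 and 69.5 CPM in the sibling trio and 7.56, 68.3 and 16.6 CPM in the tars-/- trio. The 2 libraries with the lowest crx were those with the highest cdkn1a. Within the list tp53inp1 (46.9 and 68.5 CPM in the controls, 39.1 to 90.2 CPM after injection) and sesn1 (65.2 and 61.5 CPM, then 67.8 to 83.3 CPM) were lowest. The part of pan-neuronal RNA and of p53 targets in the values of the 9 genes was not tested.

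Of the 14 proliferation genes measured, 0 were 2-fold lower or higher in any of the 4 comparisons, with medians of 0.07, 0.32, 0.36 and 0.20. Their summed level was 2469.9 to 3577 CPM over all 6 libraries, with cdk1 and top2a lowest and mcm4 highest by mean ratio. Mitotic cdk1 was at 90.6 and 84.3 CPM in the controls and 65.4 to 82.5 CPM after injection, top2a at 264 and 240 CPM and then 189 to 253 CPM, and the replication gene mcm4 at 164 and 109 CPM and then 160 to 258 CPM. Midbrain and hindbrain genes had 1, 0, 0 and 0 of 14 lower (medians -0.35, -0.07, -0.16 and -0.27). The lowest were dmbx1a, at 15.8 and 12.5 CPM in the controls and 6.09 to 9.47 CPM after injection, and en1b, at 27.4 and 33.2 CPM and then 13.8 to 27.5 CPM, and the highest was wnt1, at 7.38 and 7.22 CPM and then 8.14 to 12.7 CPM.

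Few genes of other eye tissues and of the pancreas were 2-fold lower. Of 7 pigment epithelium genes, 1, 0, 0 and 1 were lower (medians -0.23, -0.39, -0.30 and -0.16). Every injected library was below both controls for 4 of 7, where this was so for 13.7% of all genes. Their summed level was 1136 and 1133 CPM in the sibling and tars-/- controls and 823 to 909.8 CPM after injection. The lowest were rlbp1b, at 9.30 and 10.6 CPM in the controls and 3.54 to 9.72 CPM after injection, and tyrp1b, at 371 and 369.7 CPM and then 235 to 254 CPM, while mitfa was at 7.43 and 7.70 CPM and then 8.23 to 9.42 CPM. Of 9 lens genes 0 were lower and 2, 2, 1 and 1 were at least 2-fold higher (medians 0.33, 0.25, 0.23 and 0.42), where 2.5%, 0.745%, 0.781% and 2.97% of all genes were higher. The crystallin gene crybb1 was at 29.6 and 80.4 CPM in the controls and 195 to 348 CPM after injection, whereas bfsp2 was at 12.2 and 9.17 CPM and then 6.04 to 10.3 CPM and crygn2 at 165 and 145 CPM and then 101 to 129 CPM. Pancreas genes, where ptf1a also acts, had 0 of 7 lower and 0 of 7 higher (medians -0.05, 0.14, -0.31 and -0.13). Their summed level was 22.9 and 30.2 CPM in the controls and 25.9 to 31.0 CPM after injection. The carboxypeptidase gene cpa5 was at 2.28 CPM in both controls and 0.902 to 1.68 CPM after injection, the elastase gene ela2l at 1.44 and 1.80 CPM and then 1.07 to 1.49 CPM, and the somatostatin gene sst2 at 5.44 and 6.83 CPM and then 7.46 to 10.2 CPM.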

How the data were processed

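RNA-seq libraries of whole embryos (1 per condition, 6 in all) were analysed. Per the study's methods, the authors ran HISAT2 (version 2.0.5) against GRCz10 and deposited, for 34326 genes of Ensembl release 91, the raw read count from HTSeq (version 0.9.1), the gene length and the FPKM. The submitters' processing notes also name SAMtools (version 1.7). The strand setting is not given in the sources used here. The deposited FPKM equalled count over length and total within 5e-06. Counts were scaled to CPM by library total, 0.5 CPM was added for log2 ratios, and a difference of 2-fold was called among genes averaging 1 CPM or more. Ratio intervals were 95% Clopper-Pearson, covering counting error only, with 3 reads as the floor of a count of 0. A call between 2 libraries is a size, not a test. Genotype was tested with edgeR (version 4.0.16, injection state as covariate), with DESeq2 (version 1.42.0) as the alternative, in R 4.3.3, after a test on simulated data. Other work used Python 3.11.15, numpy 2.4.6, scipy 1.17.1, pandas 2.3.3 and matplotlib 3.10.9.

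The genes and the 15 lists were chosen with earlier results of these data known. Named beside the 9 genes are the 8 genes with a symbol nearest to crx, and from each list the 2 lowest and the highest by mean log2 ratio over the 4 injected libraries, with tars and eif2ak3 as checks. A gene that this rule picks is not reported here. List members with no row, or whose symbol stood on more than 1 ID, were left out. Alternatives were TMM and DESeq2 scaling, other pseudocounts, thresholds and filters, thinning to the smallest total, and leaving out each pair of libraries.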

Additional observations from a re-analysis of the deposited data

Results flagged for a closer look

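A gene was flagged if its ratios of tars-/- to siblings with the 2 morpholinos lay on opposite sides of 1. Both counting intervals also had to exclude 1, and 7 genes met this rule. The ratio was 0.257 for crx with gcn2 MO and 1.84 with perk MO. For otx5 the values were 0.481 and 2.46, for vsx1 0.550 and 2.81, for atoh7 0.424 and 3.70, for tfap2d 0.262 and 7.10, and for neurod4 0.624 and 2.73, in the same order. For rx1 the order was reversed, at 1.62 with gcn2 MO and 0.545 with perk MO. That none of the 14 counting intervals included 1 follows from the rule. The ratios of ptf1a were also on opposite sides of 1, but its interval with gcn2 MO included 1. They were 0.860 with gcn2 MO (0.633 to 1.17) and 1.52 with perk MO (1.15 to 2.02). With 1 library per condition, the difference between the 2 genotype ratios was not tested. Each ratio rests on a single pair of libraries, and the sibling perk MO library was used to choose the genes. The share of all genes with ratios on opposite sides of 1 was not computed. The reversal was also seen outside the 9 genes. Of 13 pan-neuronal genes, 13 were lower in tars-/- than in siblings with gcn2 MO and 0 with perk MO (median log2 ratios -0.47 and 0.42). The medians of the p53 target genes were 1.67 and -1.23 in the same order.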

How the results depend on the processing

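No called log2 ratio of the 9 genes changed sign under TMM, DESeq2 size factors, thinning to the smallest total, or a pseudocount of 0.1 or 2 CPM. Of 450 recomputed ratios 24 moved beyond their counting interval, 18 of them with 2 CPM added, where the largest move was 0.91 on the log2 scale; the largest under TMM was 0.12. With 2 CPM added, the genes 2-fold apart were 3 for sibling gcn2 MO against control, 3 for sibling perk MO against gcn2 MO, 1 for tars-/- gcn2 MO against perk MO and 0 for tars-/- gcn2 MO against sibling perk MO. The last was also 0 under TMM, DESeq2 size factors and a 3-fold threshold, and 2 at 1.5-fold. Over all genes with 2 CPM added, 94 were 2-fold lower and 73 higher for sibling gcn2 MO against control. For sibling perk MO against gcn2 MO they were 161 and 164, and for tars-/- gcn2 MO against perk MO 223 and 161. For tars-/- gcn2 MO against sibling perk MO they were 2 and 12. At 3-fold the counts among the 9 were 3 for sibling gcn2 MO and 2 for tars-/- perk MO against their controls, 2 for sibling perk MO against gcn2 MO, 0 for tars-/- gcn2 MO against perk MO, and 1 and 2 for tars-/- against siblings with gcn2 MO and perk MO. At 1.5-fold they were 1 for tars-/- against siblings in controls, 7 with gcn2 MO, and 7 for tars-/- gcn2 MO against perk MO. The shares of all genes at 3-fold and 1.5-fold were not computed. Over all genes, the median shift of -0.11 between controls was 0.00 under TMM, where 58 genes were 2-fold lower and 262 higher in place of 109 and 213. For tars-/- gcn2 MO against control TMM gave 692 lower and 416 higher in place of 515 and 570. The averaged genotype test called 0 genes with edgeR, 191 with DESeq2, 2 with no filter on low counts, 285 without the gcn2 MO pair and 133 without the perk MO pair, and 0 of the 9 genes in each. For sibling perk MO against control rx1 was past 2-fold, at log2 ratios of 1.06 under TMM, 1.04 under DESeq2 size factors, 1.01 with 0.1 CPM added and 1.03 after thinning, which made the count of genes 2-fold apart 8 in place of 7. The genotype test set libraries of the same injection state against each other, and no block by replicate number could be fitted because the labels give 1 library per condition. The causes of these moves were not tested.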
